A study of Mus musculus with 2 samples.

Results

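The genes described here are 51 DNA replication and G1/S genes of the mouse, chosen by name from a table of 30491 genes and grouped by textbook role into 9 sets. All 51 were listed at 1 FPKM or more (fragments scaled by transcript length and by library size) in at least 1 library, as were 12884 genes in all. The cells were muscle-resident fibro/adipogenic progenitors (FAPs), stromal cells that can give rise to fibroblasts and adipocytes, which were sorted from the muscle of wild-type mice and cultured with serum. The Musclin group received 1 µM mouse recombinant Musclin, a secreted peptide encoded by Ostn, and the vehicle group received an equal amount of vehicle, each for 24 h. There was 1 library per group, so differences have no replicate error and carry no p-value. The sources used here do not give the age or sex of the mice, or whether cultures were pooled. The table names the second column BSA, and it was read as vehicle because the series has no further sample, although the labels do not name what the vehicle held. Each direction given here rests on that reading.

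Replication is prepared in G1, when the origin recognition complex, CDC6 and CDT1 load the MCM2-7 helicase ring onto DNA, and it starts in S phase when CDC45 and GINS turn that ring into a moving helicase. DNA polymerase alpha-primase then lays down primers, and DNA polymerases delta and epsilon copy the strands with a sliding clamp, PCNA. Ribonucleotide reductase and the thymidylate enzymes supply deoxynucleotides. Most of these genes are transcribed in late G1 and S phase under E2F transcription factors, so their RNA is commonly read together as a measure of S-phase entry.

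The libraries held 6.69 Gb of aligned sequence with Musclin (22457047 fragment equivalents of 298 bases) and 6.76 Gb with vehicle (22677181). Markers of FAPs were high, although single genes differed in opposite directions. They had a summed level of 1244 FPKM with Musclin against 1242 in vehicle cells over 8 genes, 7 of them at 1 FPKM or more, while Lum was under 1 FPKM in both. Dcn was at 181 FPKM with Musclin against 64.8 in vehicle cells and Cd34 at 29.7 FPKM with Musclin against 14.5 in vehicle cells, whereas the FPKM ratio of Col3a1, Musclin over vehicle, was 0.595. The part of these differences in the results on replication genes was not tested. Lists for most other cells were low. The myogenic genes Myf5 and Pax7 and the adipocyte gene Lep were looked for and not found in the table. The 4 myogenic markers found in the table summed to 0.683 FPKM with Musclin against 1.26 in vehicle cells. The 6 endothelial markers summed to 1.5 FPKM with Musclin against 1.99 in vehicle cells, with Cldn5 and Tie1 listed at 0 in both libraries. Leukocyte markers (7 genes) summed to 13.8 FPKM with Musclin against 18.7 in vehicle cells, pericyte and smooth muscle markers (5 genes) to 19.1 FPKM with Musclin against 25.4 in vehicle cells, and glial markers (4 genes) to 1.88 FPKM with Musclin against 2.06 in vehicle cells. These sums were lower with Musclin, but single members went the other way, among them Csf1r at 1.61 FPKM with Musclin against 0.532 in vehicle cells and Myh11 at 3.75 FPKM with Musclin against 1.87 in vehicle cells. The 4 adipocyte markers found summed to 134 FPKM with Musclin against 217 in vehicle cells, and their part in the results below was not tested.

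Replication genes were mostly a little lower with Musclin. On a log2 ratio of FPKM plus 1, Musclin over vehicle, 40 of the 51 genes lay below 0, against 53.1% of all 12884 genes. At a threshold of 1.2-fold on that scale 22 genes (43.1%) were lower, against 20.6% of all genes, and 2 were higher, against 18.1% of all genes. Past 2-fold were 2 genes, Cdt1 and Mcm2, both lower, against 1.52% of all genes lower, and none was 2-fold higher, against 1.71%. With a pseudocount of 5 FPKM neither gene was past 2-fold, and after centring on the median of all genes 1 of them was. The median log2 ratio was -0.19 with an interquartile range from -0.42 to -0.02, and the median of all genes was -0.02. The 2 genes past 1.2-fold higher were Fen1 and Tk1. In bulk RNA, fewer cells of a type and less RNA per cell cannot be told apart.

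**Figure D1:**
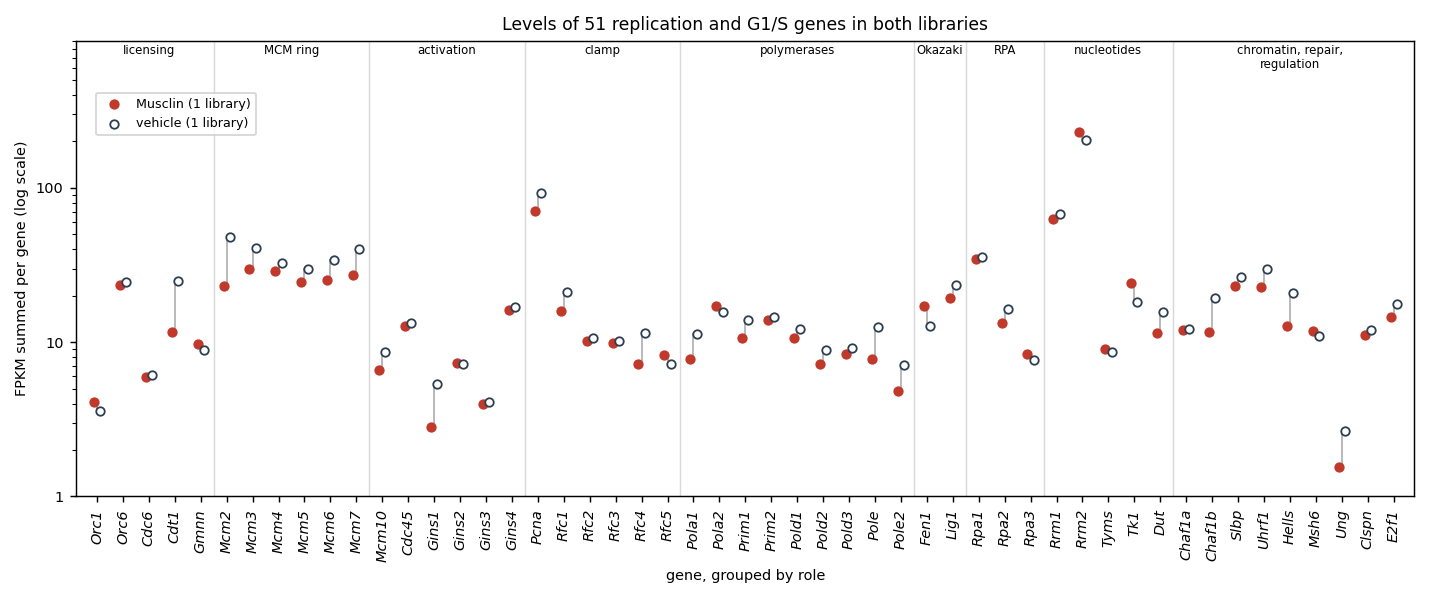
FPKM summed per gene (log scale) of the 51 genes in the Musclin library (filled) and the vehicle library (open), grouped by role, with a grey line joining both values of a gene. Cdt1 (11.6 FPKM with Musclin against 25 in vehicle cells) and Mcm2 (23.0 FPKM with Musclin against 47.8 in vehicle cells) show the widest gaps, while Fen1 and Tk1 have the Musclin point on top.

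Counting error alone was judged from the aligned-base ratio, which compares the bases assigned to a gene per aligned base of the library, with a 95% exact Clopper-Pearson interval. The interval lay wholly below 1 for 30 of the 51 genes, against 31.0% of all genes, and wholly above 1 for 4, against 26.6% of all genes. It included 1 for the other 17, for which no difference was detectable at this depth. The genes wholly above 1 were Fen1, Tk1, Rrm2 and Rfc5. These intervals cover counting error only and say nothing of the spread between cultures.

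**Figure D2:**
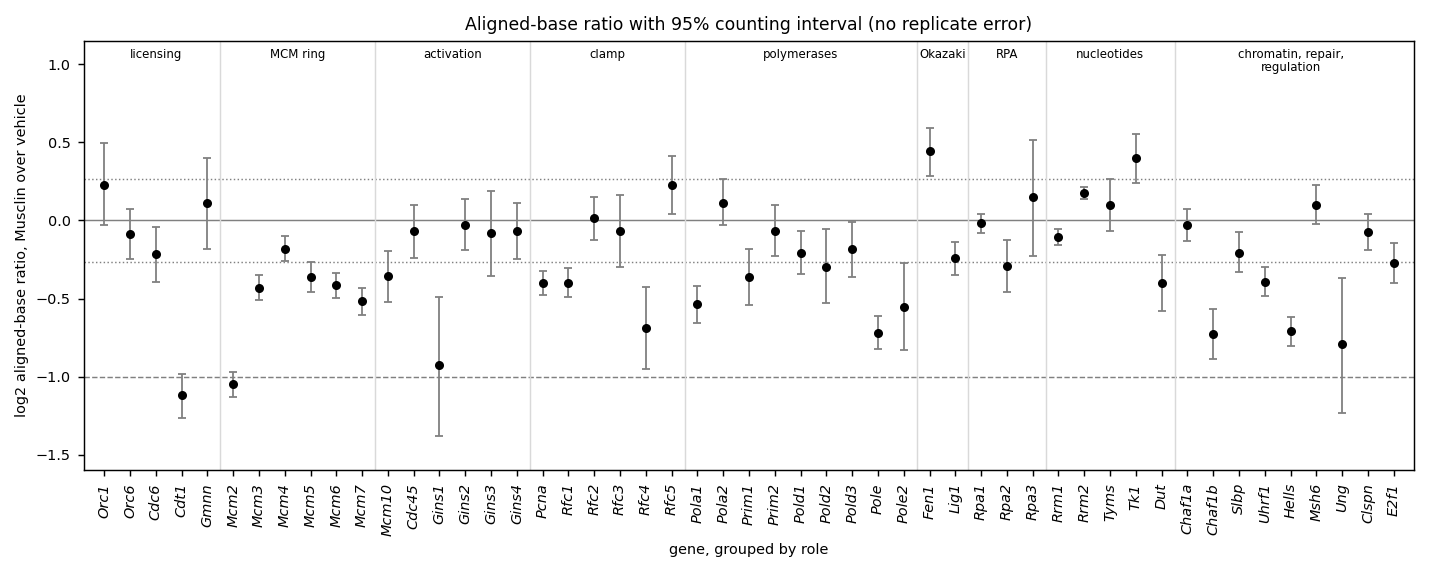
Log2 aligned-base ratio, Musclin over vehicle, of each gene with its 95% counting interval, grouped by role. Dotted lines mark 1.2-fold in either direction and the dashed line marks 2-fold lower. All 6 genes of the MCM ring lie below 0, and the nucleotide supply genes lie on both sides of it.

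Among the licensing genes, Cdt1 stood apart from the rest of its set. Cdt1 (chromosome 8, 122568015 to 122573554, GRCm38), which encodes the factor that brings the MCM ring to origins, was at 11.6 FPKM with Musclin against 25 in vehicle cells, with an aligned-base ratio of 0.460 (95% interval 0.417 to 0.507). Its inhibitor geminin, encoded by Gmnn, was at 9.80 FPKM with Musclin against 8.95 in vehicle cells, and the interval of that ratio (0.882 to 1.32) included 1. The difference of Cdt1 was beyond counting error and that of Gmnn was not detectable at this depth. Cdc6, the loading ATPase, was at 5.93 FPKM with Musclin against 6.10 in vehicle cells, and its aligned-base ratio of 0.861 (0.762 to 0.973) lay further from 1 than the FPKM ratio of 0.973, as aligned bases weight each transcript by its length. Of the origin recognition genes among the 51, Orc1 was at 4.10 FPKM with Musclin against 3.57 in vehicle cells and Orc6 was at 23.6 FPKM with Musclin against 24.6 in vehicle cells, and both intervals included 1. The other origin recognition genes belong to a second list of replication and G1/S genes outside the 51, where Orc2 (12.1 FPKM with Musclin against 15.0 in vehicle cells), Orc4 (16.5 FPKM with Musclin against 19.5 in vehicle cells) and Orc5 (8.82 FPKM with Musclin against 10.1 in vehicle cells) had intervals below 1 and the interval of Orc3 (29.3 FPKM with Musclin against 30.6 in vehicle cells) included 1. The median log2 ratio of the 5 licensing genes among the 51 was -0.03, with values of -0.24 with the leading transcript of each gene alone and 0.12 with protein-coding transcripts alone, so it has no settled direction.

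The MCM2-7 ring was the set that lay lowest with Musclin. All 6 genes were lower, 5 of them by 1.2-fold or more, with a median log2 ratio of -0.42, and each of the 6 counting intervals lay below 1. Mcm2 (chromosome 6, 88883474 to 88898780) was at 23.0 FPKM with Musclin against 47.8 in vehicle cells, with an aligned-base ratio of 0.483 (0.456 to 0.511). Mcm7 was at 27.3 FPKM with Musclin against 40.3 in vehicle cells, Mcm3 at 30.0 FPKM with Musclin against 40.7 in vehicle cells and Mcm6 at 25.4 FPKM with Musclin against 34.2 in vehicle cells. Mcm5 (24.4 FPKM with Musclin against 29.6 in vehicle cells) and Mcm4 (28.9 FPKM with Musclin against 32.7 in vehicle cells) were nearest to their vehicle levels. The log2 ratio of Mcm5 was -0.27, just past the 1.2-fold threshold. After centring on the median of all genes it was -0.24, short of that threshold. The helicase holds 1 copy of each of the 6 proteins, and their RNA levels per length were closer together with Musclin, from 23.0 to 30.0 FPKM (1.30-fold), than with vehicle, from 29.6 to 47.8 FPKM (1.62-fold). Mcm2 was the lowest of the 6 with Musclin and the highest with vehicle.

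The genes that activate the loaded ring showed no such common shift. Gins1 was at 2.80 FPKM with Musclin against 5.36 in vehicle cells, with an aligned-base ratio of 0.527 (0.384 to 0.712) that rests on 66 fragment equivalents with Musclin against 127 in vehicle cells. The other GINS subunits were close to their vehicle levels, with Gins2 at 7.35 FPKM with Musclin against 7.21 in vehicle cells, Gins3 at 4.0 FPKM with Musclin against 4.09 in vehicle cells and Gins4 at 16.2 FPKM with Musclin against 17.0 in vehicle cells. GINS is a complex of 4 different subunits, and only Gins1 among them had an interval that excluded 1. Mcm10, which encodes a helicase activation factor, was at 6.58 FPKM with Musclin against 8.59 in vehicle cells with a ratio of 0.780 (0.696 to 0.875), and Cdc45 was at 12.8 FPKM with Musclin against 13.3 in vehicle cells. The median log2 ratio of the 6 genes was -0.06. In the second list, the replication-start genes Dbf4 (aligned-base ratio 0.714), Recql4 (0.281), Mtbp (0.560), Ticrr (0.815) and Donson (0.790) had intervals below 1. Of the same kind, Cdc7 and Topbp1 had intervals that included 1.

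The sliding clamp gene was lower and the clamp loader genes were divided. Pcna was at 70.7 FPKM with Musclin against 93.1 in vehicle cells, with an aligned-base ratio of 0.758 (0.719 to 0.800), and its pseudogene copy Pcna-ps2 was listed at 1.74 FPKM with Musclin against 1.75 in vehicle cells. Rfc1, the large subunit of replication factor C, was at 16.0 FPKM with Musclin against 21.0 in vehicle cells and Rfc4 at 7.19 FPKM with Musclin against 11.4 in vehicle cells, with intervals below 1 for both. Rfc2 (10.2 FPKM with Musclin against 10.7 in vehicle cells) and Rfc3 (9.94 FPKM with Musclin against 10.2 in vehicle cells) had intervals that included 1. Rfc5 was at 8.24 FPKM with Musclin against 7.27 in vehicle cells, a ratio of 1.17 (1.03 to 1.33). Its log2 ratio was 0.16, and 0.07 with protein-coding transcripts alone. Rfc5 shares 499 exon bases with Wsb2 on the opposite strand (66.0 FPKM with Musclin against 75.4 in vehicle cells), so its value is uncertain. The log2 ratio of Rfc4 turned to 0.12 with its leading transcript alone. The median of the clamp and loader genes was -0.22 on the log2 scale, and -0.0435 with leading transcripts alone.

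Polymerase genes were lower in 8 of 9 cases, 4 of them by 1.2-fold or more, with a median log2 ratio of -0.25. Of DNA polymerase epsilon, the leading-strand enzyme, the catalytic gene and 1 accessory gene were lower. Pole, the catalytic subunit, was at 7.79 FPKM with Musclin against 12.6 in vehicle cells, with an aligned-base ratio of 0.608 (0.566 to 0.654), and Pole2 was at 4.83 FPKM with Musclin against 7.08 in vehicle cells. The small accessory subunit genes Pole3 (21.4 FPKM with Musclin against 21.4 in vehicle cells) and Pole4 (13.7 FPKM with Musclin against 14.5 in vehicle cells), which belong to the second replication list, had intervals that included 1. In DNA polymerase alpha-primase, which lays down primers, the catalytic genes Pola1 (7.82 FPKM with Musclin against 11.3 in vehicle cells) and Prim1 (10.7 FPKM with Musclin against 13.9 in vehicle cells) were lower. Their partner subunits Pola2 (17.1 FPKM with Musclin against 15.6 in vehicle cells) and Prim2 (14.0 FPKM with Musclin against 14.6 in vehicle cells) had intervals that included 1. The 3 genes of DNA polymerase delta, which copies the lagging strand, among the 51 had intervals below 1 and did not reach the 1.2-fold threshold on the scale of FPKM plus 1, Pold1 at 10.6 FPKM with Musclin against 12.2 in vehicle cells, Pold2 at 7.27 FPKM with Musclin against 8.85 in vehicle cells and Pold3 at 8.32 FPKM with Musclin against 9.15 in vehicle cells. On plain FPKM, Pold2 was 1.22-fold lower with Musclin. The remaining delta gene, Pold4 of the second list, was at 32.1 FPKM with Musclin against 27.2 in vehicle cells, a ratio of 1.17 (1.04 to 1.32).

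Genes for joining Okazaki fragments went in opposite directions. Fen1 (chromosome 19, 10199132 to 10204169), the flap endonuclease that trims primer flaps, was at 17.1 FPKM with Musclin against 12.7 in vehicle cells, with an aligned-base ratio of 1.36 (1.22 to 1.51). Fen1 shares 130 exon bases with Tmem258 on the opposite strand, which was at 9.44 FPKM with Musclin against 7.0 in vehicle cells, and 1909 with the antisense gene Gm10143, which was at 0.397 FPKM with Musclin against 0.263 in vehicle cells. The sources used here do not say whether reads were counted by strand, and without strand the reads of such pairs cannot be told apart. Lig1, the ligase that seals the nick, was at 19.4 FPKM with Musclin against 23.5 in vehicle cells, a ratio of 0.845 (0.785 to 0.909). Of the genes for RPA, which coats single-stranded DNA, Rpa1 was at 34.8 FPKM with Musclin against 35.4 in vehicle cells, Rpa3 at 8.43 FPKM with Musclin against 7.63 in vehicle cells and Rpa2 at 13.3 FPKM with Musclin against 16.3 in vehicle cells. Only the interval of Rpa2 (0.727 to 0.918) excluded 1 among the 3 RPA genes.

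Nucleotide supply genes lay on both sides of their vehicle levels. Their median log2 ratio was 0.06, with 3 of 5 above 0, and it was -0.0083 with protein-coding transcripts alone. Rrm2, the regulated small subunit of ribonucleotide reductase, was the most abundant of the 51 genes at 231 FPKM with Musclin against 204 in vehicle cells, a ratio of 1.13 (1.1 to 1.16). The large subunit gene Rrm1 was at 62.6 FPKM with Musclin against 67.6 in vehicle cells, a ratio of 0.929 (0.895 to 0.963). Tk1 (chromosome 11, 117815526 to 117826092), the S-phase thymidine kinase, was at 24.3 FPKM with Musclin against 18.1 in vehicle cells, a ratio of 1.32 (1.18 to 1.47). Thymidylate synthase, encoded by Tyms, was at 8.98 FPKM with Musclin against 8.61 in vehicle cells with an interval that included 1. Dut, whose product removes dUTP, was at 11.4 FPKM with Musclin against 15.7 in vehicle cells, a ratio of 0.756 (0.668 to 0.857). Summed over the 51 genes the level was 1027 FPKM with Musclin against 1169 in vehicle cells, and without Rrm2 it was 796 FPKM with Musclin against 965 in vehicle cells.

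Among genes of chromatin assembly, repair and regulation, 8 of 9 lay below 0, of which 4 reached the 1.2-fold threshold, and the set had a median log2 ratio of -0.26, or -0.45 with leading transcripts alone. The CAF-1 histone chaperone subunits differed. Chaf1b was at 11.6 FPKM with Musclin against 19.4 in vehicle cells, with an aligned-base ratio of 0.605 (0.540 to 0.676), whereas Chaf1a was at 12 FPKM with Musclin against 12.1 in vehicle cells. Chaf1a shares 4648 exon bases with Ubxn6 on the opposite strand (8.70 FPKM with Musclin against 7.83 in vehicle cells), so its value is uncertain. Hells, a chromatin remodeller linked to DNA methylation, was at 12.8 FPKM with Musclin against 20.8 in vehicle cells, a ratio of 0.612 (0.574 to 0.651), and Uhrf1, which recruits the maintenance methyltransferase to new DNA, was at 22.8 FPKM with Musclin against 30.0 in vehicle cells. Ung, the uracil-DNA glycosylase gene, was at 1.56 FPKM with Musclin against 2.66 in vehicle cells, the lowest level of the 51. The histone mRNA-binding gene Slbp was at 23.0 FPKM with Musclin against 26.4 in vehicle cells. The mismatch repair gene Msh6 (11.8 FPKM with Musclin against 11 in vehicle cells) and the checkpoint adaptor gene Clspn (11.2 FPKM with Musclin against 12 in vehicle cells) had intervals that included 1. The transcription factor gene E2f1 was at 14.6 FPKM with Musclin against 17.7 in vehicle cells, with a log2 ratio of -0.26 just short of the 1.2-fold threshold.

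Some gene totals held transcripts that differed in opposite directions. The 51 genes have 266 listed transcripts, of which 91 were at 1 FPKM or more in a library. The most abundant transcript was the same in both libraries for 49 genes, and it differed for Rfc4 and E2f1. The share of all genes for which it differed was not computed. In Rfc4, ENSMUST00000023598 was at 5.52 FPKM with Musclin against 5.01 in vehicle cells, and ENSMUST00000115338 at 1.32 FPKM with Musclin against 5.94 in vehicle cells, so the lower total rests on the second. They share 1200 exon bases and encode 364 and 370 residues. In E2f1, ENSMUST00000000894 (385 residues) was at 8.05 FPKM with Musclin against 5.42 in vehicle cells and ENSMUST00000103145 (430 residues) at 6.51 FPKM with Musclin against 12.2 in vehicle cells. The division of reads among such overlapping transcripts is the authors' estimate, and it carries no counting interval here.

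In 5 genes, namely Cdc6, E2f1, Mcm5, Orc6 and Rfc1, some transcripts were 1.2-fold or more higher and others 1.2-fold or more lower. The share of all genes with such a split was not computed, so it is not known whether 5 is unusual. The main transcript of Mcm5, ENSMUST00000164309, was at 13.3 FPKM with Musclin against 24.1 in vehicle cells. Its shorter forms ENSMUST00000212811 (6.60 FPKM with Musclin against 3.33 in vehicle cells) and ENSMUST00000212426 (4.15 FPKM with Musclin against 1.32 in vehicle cells) were higher, and all 3 encode 734 residues. Mcm5 as a whole was thus nearer to its vehicle level than its main transcript. The main transcript of Orc6, ENSMUST00000034132, was at 13.9 FPKM with Musclin against 20.7 in vehicle cells, while the nonsense-mediated decay form ENSMUST00000210146 was at 3.37 FPKM with Musclin and listed at 0 with vehicle. In Dut, whose human counterpart encodes a nuclear and a mitochondrial enzyme, the transcript for 162 residues was at 9.31 FPKM with Musclin against 11.3 in vehicle cells and that for 200 residues at 1.62 FPKM with Musclin against 4.30 in vehicle cells. In Cdt1 both main transcripts were lower, the coding ENSMUST00000006760 at 7.53 FPKM with Musclin against 16.4 in vehicle cells and the retained-intron ENSMUST00000212967 at 3.67 FPKM with Musclin against 8.05 in vehicle cells, and the coding form held 64.9% of the gene with Musclin against 65.5% in vehicle cells.

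The authors' deposited table marks 11 of the 266 transcripts, in 10 genes, as significant. Lower in the authors' deposited table are 6 of them, 2.26% of the 266 against 1.72% of all transcripts, and 5 are higher, 1.88% against 1.69% of all transcripts. These shares are close to the background. The lower ones in the authors' deposited table include the main transcript of Mcm2, both Cdt1 transcripts and ENSMUST00000115338 of Rfc4, and the higher ones include ENSMUST00000142241 of Fen1 (2.63 FPKM with Musclin against 0.679 FPKM with vehicle) and ENSMUST00000212426 of Mcm5. Fen1 has 3 transcripts at the floor, all for 380 residues, and its main form ENSMUST00000025651 was at 10.5 FPKM with Musclin against 6.51 in vehicle cells.

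**Figure D3:**
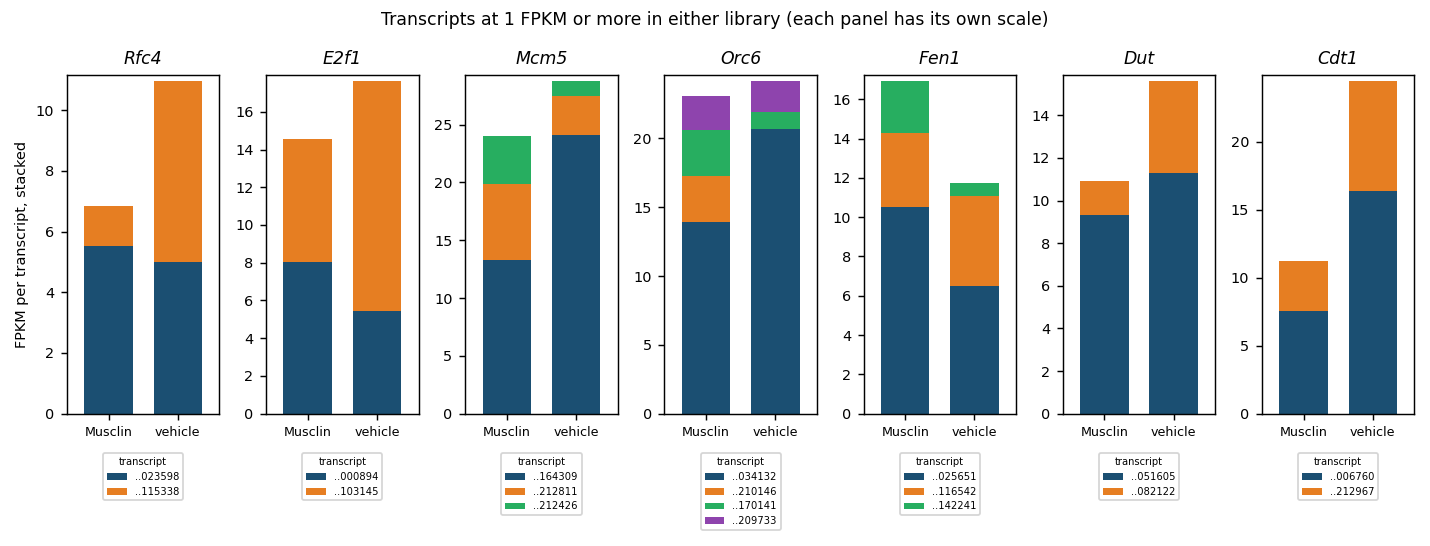
Stacked FPKM of the transcripts at 1 FPKM or more in either library, Musclin bar left and vehicle bar right, for 7 genes, each on its own scale, with transcripts named by their last 6 digits. In Rfc4 and E2f1 the larger segment differs between the bars, and in Cdt1 both segments are smaller with Musclin.

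Promoter sequence is shown because E2F sites are the feature these genes are best known to share. Windows of 300 bases, from 250 before to 50 after the annotated start (RefSeq, GRCm38.p6), were found for 43 of the 51 genes. Gins1, Gins2, Gins4, Gmnn, Mcm4, Pole, Prim2 and Rfc2 had none. The E2F site was searched on both strands as TTTCCCGC, TTTCGCGC, TTTGCCGC or TTTGGCGC, and overlapping matches were counted separately. It was found in 18 of the 43 genes (41.9%), against 2.60% of 27025 genes with a window. The windows of the 43 genes were also richer in G and C, with a median of 63.0% against 52.7%, and held a median of 24 CpG pairs against 7, and the part of base composition in the match rate was not tested. By role, matches were found in 4 of 5 genes of the MCM ring, 3 of 4 licensing genes, 4 of 7 polymerase genes, 4 of 9 chromatin, repair and regulation genes, 1 of 2 Okazaki fragment genes, 1 of 3 activation genes, 1 of 5 clamp and loader genes, none of 3 RPA genes and none of 5 nucleotide supply genes. The E2F stretches of the MCM ring are given with up to 10 bases on either side and matches on either strand in capitals. The Mcm3 stretch stops at the end of its window, so fewer bases follow its last match. All stretches are read along the strand of the gene and were chosen after the values were seen. They are Mcm3 (chr1:20820263-20820303, minus strand), Mcm5 (chr8:75109346-75109377, plus strand), Mcm6 (chr1:128359735-128359825, minus strand) and Mcm7 (chr5:138171850-138172058, minus strand).
Mcm3: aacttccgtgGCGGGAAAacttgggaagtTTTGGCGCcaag
Mcm5: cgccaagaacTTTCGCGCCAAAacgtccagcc
Mcm6: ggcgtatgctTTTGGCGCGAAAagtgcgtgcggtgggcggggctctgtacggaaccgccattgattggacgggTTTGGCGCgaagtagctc
Mcm7: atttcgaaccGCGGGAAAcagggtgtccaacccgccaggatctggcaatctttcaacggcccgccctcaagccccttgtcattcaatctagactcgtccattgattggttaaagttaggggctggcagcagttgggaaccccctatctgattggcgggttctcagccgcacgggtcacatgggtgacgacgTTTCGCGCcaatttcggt
In Mcm5 and Mcm6 a match on one strand overlaps a match on the other, so that a single run in capitals holds both.

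A match did not go with a lower level in each case. Of the 20 genes with a window that were 1.2-fold or more lower, 10 held an E2F match, and of the other 23 genes 8 did. The windows of the 2 genes farthest below vehicle and of the 2 farthest above, taken at the window nearest to the leading transcript, are printed whole, with E2F, CCAAT (letters CCAAT) and CHR (letters TTTGAA) matches in capitals. They are Cdt1 (chr8:122567765-122568064, plus strand), Mcm2 (chr6:88898731-88899030, minus strand), Fen1 (chr19:10203872-10204171, minus strand) and Tk1 (chr11:117825965-117826264, minus strand).
Cdt1: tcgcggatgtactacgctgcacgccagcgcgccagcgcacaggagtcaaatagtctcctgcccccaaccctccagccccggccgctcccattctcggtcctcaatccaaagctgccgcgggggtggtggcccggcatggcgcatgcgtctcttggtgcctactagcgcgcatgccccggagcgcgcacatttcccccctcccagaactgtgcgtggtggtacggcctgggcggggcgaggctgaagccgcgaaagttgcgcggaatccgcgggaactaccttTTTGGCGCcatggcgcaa
Mcm2: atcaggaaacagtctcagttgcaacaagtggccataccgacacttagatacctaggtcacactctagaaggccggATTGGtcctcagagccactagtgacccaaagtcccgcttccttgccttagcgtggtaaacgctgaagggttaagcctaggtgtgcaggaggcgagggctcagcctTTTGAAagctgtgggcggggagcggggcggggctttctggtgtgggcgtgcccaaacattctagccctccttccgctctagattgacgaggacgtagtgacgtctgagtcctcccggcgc
Fen1: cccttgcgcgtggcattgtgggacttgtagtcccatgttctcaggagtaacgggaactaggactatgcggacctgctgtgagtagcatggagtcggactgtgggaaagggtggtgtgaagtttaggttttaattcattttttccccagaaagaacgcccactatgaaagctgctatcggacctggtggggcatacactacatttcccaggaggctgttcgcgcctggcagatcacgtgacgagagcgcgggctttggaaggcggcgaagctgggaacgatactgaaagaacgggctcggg
Tk1: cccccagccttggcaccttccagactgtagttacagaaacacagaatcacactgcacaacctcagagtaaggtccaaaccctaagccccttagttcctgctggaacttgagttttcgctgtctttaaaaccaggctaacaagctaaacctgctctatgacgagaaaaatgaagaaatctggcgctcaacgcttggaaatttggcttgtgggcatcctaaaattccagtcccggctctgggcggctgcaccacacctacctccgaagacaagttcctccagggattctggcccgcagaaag
The match in Cdt1 is an E2F site that begins 32 bases downstream of the annotated start. Mcm2 has no E2F match in this window and holds a CCAAT box, on the strand opposite to the gene, 175 bases upstream and a CHR 70 bases upstream. The Fen1 and Tk1 windows hold none of these letters, though a second window of Fen1 holds a CHR. The annotated start of the window lies 147 bases from the start of the leading transcript for Fen1 and 78 for Tk1. That distance is 0 for Cdt1 and Mcm2, so the windows are not placed alike. A match is a description of sequence and not a bound site.

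**Figure D4:**
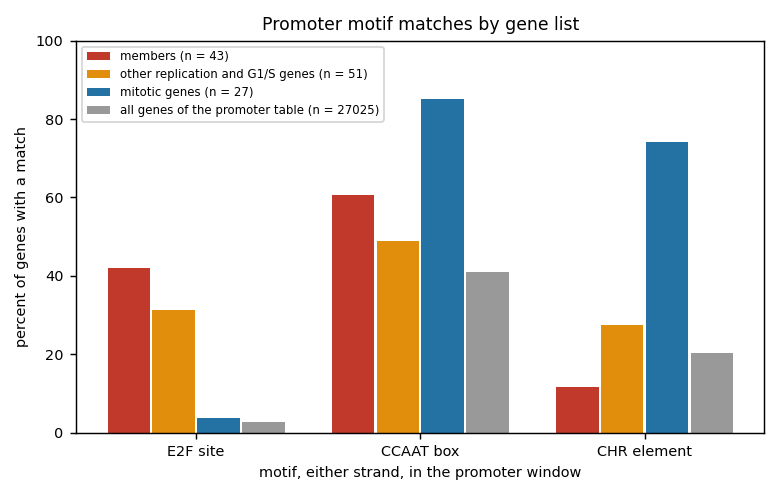
Percent of genes whose promoter window holds an E2F site, a CCAAT box or a CHR element on either strand, for the replication genes, the other replication and G1/S genes, the mitotic genes and all genes of the promoter table. The E2F bar is tallest in the replication genes (41.9%) and the CHR bar in the mitotic genes (74.1%).

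The other promoter elements differed in share between the replication and mitotic lists, with no test made. CHR elements, known from genes expressed in G2 and mitosis, were found in 5 of the 43 replication genes (11.6%) and in 20 of 27 mitotic genes (74.1%), against 20.2% of all genes with a window. CCAAT boxes were found in 26 of the 43 (60.5%) and in 23 of the 27 mitotic genes (85.2%), against 41.1% of all. E2F matches were found in 1 of the 27 mitotic genes. In the second replication list, with windows for 51 of its 67 genes, CHR elements were found in 14 (27.5%), a larger share than among all genes. CCAAT boxes were found in 25 of those genes (49.0%) and E2F matches in 16 (31.4%). A low CHR share was thus not common to both replication lists.

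A second list of replication and G1/S genes, which does not overlap the 51, lay the same way in the same 2 libraries. It was chosen with earlier results of these data known, so it is not an independent check. Of 67 genes 66 were at the floor, with 52 below 0, against 53.1% of all genes. There were 20 (30.3%) past 1.2-fold lower, against 20.6% of all genes, and none past 1.2-fold higher, against 18.1% of all genes. The median log2 ratio was -0.16. Recql4, a helicase gene of origin firing, was at 2.37 FPKM with Musclin against 8.47 in vehicle cells, with an aligned-base ratio of 0.281 (0.239 to 0.327). Mtbp, which also acts in origin firing, was at 8.62 FPKM with Musclin against 15.4 in vehicle cells, Cdca7, a partner of the Hells remodeller, at 4.08 FPKM with Musclin against 7.91 in vehicle cells, and Dctpp1, a dCTP pyrophosphatase gene, at 3.63 FPKM with Musclin against 6.95 in vehicle cells. Dtl, part of the ubiquitin ligase that removes CDT1 in S phase, was at 6.72 FPKM with Musclin against 10.4 in vehicle cells, and Usp1, a deubiquitinase for PCNA, at 23.2 FPKM with Musclin against 33.7 in vehicle cells. The log2 ratio of Dtl was 0.02 with protein-coding transcripts alone and that of Usp1 was 0.34 with its leading transcript alone, so both directions depend on how transcripts are summed. That of Mtbp was -0.77, and -0.45 with its leading transcript alone.

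Mitotic genes were mixed, with a median slightly above 0. Of 32 genes, all at the floor, 21 lay above 0 and 11 below, against 53.1% of all genes below 0. Of the 32, 8 (25%) were past 1.2-fold higher, against 18.1% of all genes, and 2 past 1.2-fold lower, against 20.6%. The counting interval lay wholly above 1 for 14 and wholly below 1 for 7, against 26.6% and 31.0% of all genes. Those below 1 were Ccnb1, Foxm1, Kif11, Mybl2, Ndc80, Prc1 and Tpx2. The median log2 ratio was 0.07. Aurkb, the Aurora B kinase gene, was at 16.2 FPKM with Musclin against 10.3 in vehicle cells, with an aligned-base ratio of 1.63 (1.44 to 1.85). The centromeric histone gene Cenpa was at 14.6 FPKM with Musclin against 8.95 in vehicle cells, the mitotic kinesin gene Kif20a at 38.8 FPKM with Musclin against 27.7 in vehicle cells, the proliferation marker Mki67 at 35.1 FPKM with Musclin against 26.0 in vehicle cells, Birc5, which encodes survivin, at 23.1 FPKM with Musclin against 17.3 in vehicle cells and the mitotic kinase gene Plk1 at 30.3 FPKM with Musclin against 23.0 in vehicle cells. The log2 ratio of Cenpa was 0.65, and with protein-coding transcripts alone, or its leading transcript alone, it was 0.26, short of 1.2-fold. With 1 library per group the difference between the replication and mitotic lists could not be tested.

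**Figure D5:**
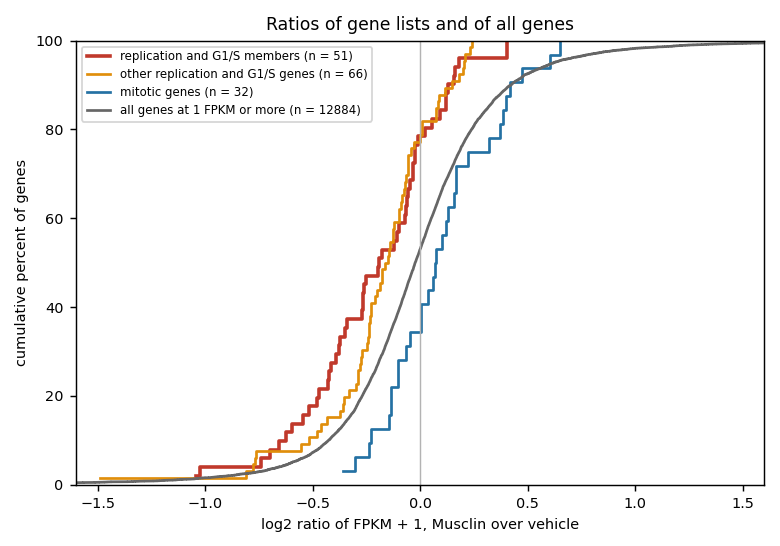
Cumulative percent of genes by log2 ratio of FPKM plus 1, Musclin over vehicle, for the 51 replication and G1/S genes, the other replication and G1/S genes, the mitotic genes and all genes at 1 FPKM or more. At their medians both replication lists lie left of all genes (-0.19 and -0.16 against -0.02) and the mitotic list lies to the right (0.07), while toward the upper end the mitotic curve meets that of all genes.

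Overlap between genes limits some values. Of the 51 genes 17 share exon bases with another annotated gene, 15 of them with one on the opposite strand. Besides Chaf1a, Fen1 and Rfc5, Gins2 shares 2758 exon bases with Gse1, which was at 9.30 FPKM with Musclin against 6.38 in vehicle cells. Rfc4 shares 194 with Eif4a2, which was at 84.8 FPKM with Musclin against 94.8 in vehicle cells. Orc6 shares 171 with Vps35, which was at 97.7 FPKM with Musclin against 112 in vehicle cells. Mcm7 shares 321 with Ap4m1 (4.49 FPKM with Musclin against 4.94 in vehicle cells). It also shares 64 with Cops6 (38.7 FPKM with Musclin against 39.7 in vehicle cells).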

How the data were processed

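RNA-seq of 2 samples, 1 per group, was read from 1 deposited table of 88702 transcripts. FPKM per transcript was computed by the authors, per the file headers, and StringTie, DESeq2 and edgeR are named without roles in the submitters' processing notes. The aligner, build, strandedness and test were not given in the sources used. The deposited fold (a ratio of the FPKM values, a zero replaced by 0.0001), its log2, and the p-values and q-values are the authors' own. Of 88029 transcripts found in GENCODE vM21 (GRCm38) 87772 have the same start and end.

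FPKM was summed per gene with Python 3.11.15 and pandas 2.3.3, and log2 ratios used a pseudocount of 1 FPKM, which understates differences of low genes. Genes at 1 FPKM or more in either library were kept. Aligned bases were recovered from steps of FPKM times length in single-exon genes (79.0% whole within 0.1 base in each library). The counting intervals and fold thresholds were checked on simulated counts, with library depth taken as known and no spread between cultures. Those counts were drawn from the counting model that the intervals assume, so the check cannot test that model. The recovery of aligned bases was not part of that check. No test was possible with 1 library per group. Named beyond the 51 are the 6 genes of each further list that lay farthest from 0 among those with 5 FPKM or more, and other genes that touch a result, chosen after their values were seen. Members and lists were chosen with earlier results of these data known. Alternatives were other pseudocounts, floors, scalings and ways of summing transcripts.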

Additional observations from a re-analysis of the deposited data

How the results depend on the processing

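The median over the 51 genes and the counts past 1.2-fold kept their direction, under each of the alternatives of pseudocount, floor, scaling and transcript summing run for them. The 22 genes 1.2-fold lower became 19 when centred on the median of all genes (18.6% of all genes). They became 17 at a pseudocount of 5 (10.6% of all genes) and 24 at a pseudocount of 0.1 (24.2% of all genes). The 2 genes 2-fold lower became 1 when centred on the median of all genes and 0 at a pseudocount of 5. With the leading transcript alone the median log2 ratio was -0.51 for the MCM ring, 0.23 for Okazaki fragment maturation, -0.45 for chromatin, repair and regulation, -0.0435 for the clamp and its loader and -0.24 for licensing (0.12 with protein-coding transcripts alone), and the log2 ratios of Rfc4 (0.12), Dtl (0.0167) and Usp1 (0.34) reversed. Dtl also reversed with protein-coding transcripts alone (0.0167). The cause was not tested. At a pseudocount of 5 the second replication list had 9 of 66 genes 1.2-fold lower and the mitotic list 0 of 32, against 10.6% of all genes. At a pseudocount of 0.1, and when centred, the second list had 1 gene 1.2-fold higher, against 20.8% and 19.9% of all genes. Of the 51 genes 34 stayed below 0 and 8 above 0 under every alternative run. No paired analysis was possible because each group has 1 sample, and for the same reason no replicate could be left out. Depth limits Gins1, Ung and Rpa3 most, with 66, 73 and 127 fragment equivalents with Musclin.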
